A study of Mus musculus with 46 samples.

Results

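The regions described here are 498 very broad domains of H3K27 acetylation (H3K27ac) in the liver of wild-type (WT) mice. On the autosomes, peaks of 15 kb or wider were taken from each of the 2 WT H3K27ac libraries, overlapping ones were merged, and a merged domain was kept where both libraries contributed such a peak. The 498 domains were 1.30% of the 38292 autosomal regions that held an H3K27ac peak of both WT libraries. The members were thus chosen by the width of WT H3K27ac peaks, and the H3K27ac values in the domains are given as a description, outside the comparisons of PA with WT. The samples were frozen livers of female mice, 11 weeks old and on the FVB background, profiled by native ChIP-seq, in which nucleosomes are released from unfixed nuclei by micrococcal nuclease. PA mice are hypomorphic Pcca-/- (A138T) animals, a model of propionic acidemia in which the carboxylase that consumes propionyl-CoA in mitochondria is impaired. They were compared with WT mice kept on the same standard chow. Liver preparations with the letter A served for H3K27ac, H3K9ac, H4K16ac and H4K16bu, where bu stands for butyrylation. Those with the letter B served for the acetyl marks H4K5ac and H4K12ac and the propionyl marks H4K5pr, H4K12pr and H4K16pr (Thermo). Every one of these 9 antibodies had 2 PA and 2 WT libraries, and a second, in-house antibody to H4K16pr was used in WT only. Whether an A and a B preparation with the same number share a liver is not stated, so p-values over preparations may in part measure technical spread.

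Acetylation of H3K27 is placed by the acetyltransferases p300 and CBP and marks active promoters and enhancers. Where many active elements lie side by side, their H3K27ac peaks join into broad domains, which are known to gather at genes that define a cell type, such as those of secreted plasma proteins and of lineage transcription factors in hepatocytes. Acetylation, propionylation and butyrylation of the lysines in the histone H4 tail use the matching acyl-CoA as donor. Every value of coverage below is the percentage of the bases of a domain, or of all domains together, that lie under the deposited peaks of a library. Read depth is unknown, so a base without a peak is only not listed, which is not the same as unmarked, and no counting interval can be given. The 36 libraries of the 9 antibodies with both genotypes held between 32358 and 70886 peaks.

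Promoters of the widest domains are shown first, because they are the sequences from which the genes inside these domains start. Each runs from 250 bases before to 50 bases after a RefSeq start on GRCm38.p6, and the 4 below come from the 4 widest domains that hold a promoter of the reference table, 1 per domain. Capitals mark matches to 2 of the 8 motifs searched on both strands, the D-box TTATGTAA and the C/EBP motif TTGCNNAA.
Zmiz1 (chr14:25458935-25459234, plus strand): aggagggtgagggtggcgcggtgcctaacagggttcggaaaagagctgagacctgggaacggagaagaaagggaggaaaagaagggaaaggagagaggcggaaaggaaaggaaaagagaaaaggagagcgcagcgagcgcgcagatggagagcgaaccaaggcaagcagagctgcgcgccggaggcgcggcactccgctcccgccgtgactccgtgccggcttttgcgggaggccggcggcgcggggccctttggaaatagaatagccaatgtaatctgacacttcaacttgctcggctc
Atxn2 (chr5:121711359-121711658, plus strand): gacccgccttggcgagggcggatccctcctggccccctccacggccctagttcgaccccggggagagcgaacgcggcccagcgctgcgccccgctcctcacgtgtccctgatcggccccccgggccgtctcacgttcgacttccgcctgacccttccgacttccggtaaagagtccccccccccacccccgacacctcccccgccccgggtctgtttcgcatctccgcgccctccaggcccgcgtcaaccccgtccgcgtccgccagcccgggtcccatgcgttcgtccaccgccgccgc
Alb (chr5:90460620-90460919, plus strand): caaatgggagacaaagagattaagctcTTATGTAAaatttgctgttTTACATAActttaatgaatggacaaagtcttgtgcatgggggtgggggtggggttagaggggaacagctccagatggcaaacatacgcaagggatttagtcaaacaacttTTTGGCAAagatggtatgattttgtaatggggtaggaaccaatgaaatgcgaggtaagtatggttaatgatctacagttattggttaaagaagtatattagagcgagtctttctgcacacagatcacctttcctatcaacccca
Apoa1 (chr9:46228380-46228679, plus strand): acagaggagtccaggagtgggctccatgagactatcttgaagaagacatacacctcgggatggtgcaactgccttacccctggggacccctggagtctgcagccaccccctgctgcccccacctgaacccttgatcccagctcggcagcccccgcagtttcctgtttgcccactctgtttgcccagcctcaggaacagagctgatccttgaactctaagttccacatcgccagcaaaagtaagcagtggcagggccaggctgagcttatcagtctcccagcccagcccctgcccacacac
The Zmiz1 and Apoa1 promoters lay entirely under a peak in 36 of 36 libraries. The Alb promoter did so in 29 and the Atxn2 promoter in 30, and in both of them the exceptions included all 4 H4K5ac libraries. GC content was 40.0% in the Alb promoter and 59.3% to 74.3% in the others. Only the Alb promoter held capitals, with a pair of D-boxes and a C/EBP match, letters bound by the liver-enriched factors of the PAR bZIP and C/EBP families. Over all 416 RefSeq promoters inside the domains a C/EBP match was present in 9.62%, against 10.3% of 20084 autosomal promoters. A D-box was present in 0.721% against 0.906%, and a TATA box (TATAAA) in 11.3% against 12.7%. The CCAAT box (CCAAT) was present in 38.7% against 38.1% and the FOXA motif TGTTTAC in 3.61% against 3.04%. HNF4A letters (CAAAGTCCA) were found in 0.481% against 0.463%, and the HNF1 motif in 0.240% against 0.0249%, which is 1 domain promoter. The GC box GGGCGG differed most in percentage points, with 56.0% of domain promoters against 47.0% of all promoters, beside a median GC content of 59.7% against 57%.

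The domains covered 13.2 Mb in total and had a median width of 23.5 kb, with a range of 15.3 to 115 kb. There were 117 domains of 30 kb or wider, 19 of 50 kb or wider and 149 under 20 kb. They held 9.21% and 8.78% of all bases under the 2 WT H3K27ac peak lists. Every autosome carried between 12 domains (chromosome 16) and 40 domains (chromosome 4). The WT libraries had 633 and 837 autosomal peaks of 15 kb or wider, which merged into 944 regions, and 446 of these had such a peak in only 1 of the 2 libraries. Just inside the rule stood domains at Clec2d, Cdo1 and Poc1a, whose narrower of the 2 WT peaks measured 15.01, 15.02 and 15.04 kb. Just outside it stood regions at Skiv2l (14998 bp), Fnip2 and Cflar (each 14.98 kb). Coverage by the other 8 antibodies was 78.9% to 88.1% in PA and 70.3% to 78.1% in WT in the first 3, and 73.8% to 85.3% in PA and 71.0% to 81.2% in WT in the last 3. The ranges on the 2 sides of the limit overlapped.

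The widest domain, of 115 kb, lay over Mtss1 (chr15:58972232-59087468), which encodes a scaffold of actin and membranes. It was followed by a domain of 83.2 kb inside Shb, a signalling adaptor, and one of 74.8 kb at the start of Zmiz1, a transcriptional coactivator. A domain of 65.9 kb at Atxn2, the gene of an RNA-binding protein, also overlapped Brap. The next, of 65.3 kb, held no coding gene (the nearest, Klf14, was 128072 bp away) and overlapped 47.1% of the long noncoding RNA gene Lncpint. The Alb domain measured 63.4 kb (chr5:90404157-90467512) and was placed almost wholly before its gene, with 56.7 kb upstream of the start of Alb (serum albumin) and 6.64 kb downstream. A domain of 62.9 kb lay inside Adk, adenosine kinase. The Apoa1 domain of 59.7 kb (chr9:46192944-46252664) held the starts of Apoa1, Apoa4 and Apoc3, the apolipoprotein cluster, and the end of Sik3. The domain named after Frmd8 (58.3 kb, chr19:5794598-5852850) contained the whole of Malat1 and Neat1, nuclear long noncoding RNAs. The next, of 57.5 kb, lay 58913 bp from Ptpn1 and overlapped no coding gene.

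A coding gene started in 300 of the 498 domains, 246 with 1 start and 54 with more. Another 153 overlapped a coding gene away from its start, and 45 lay outside coding genes, at a median of 31.1 kb and at most 228 kb from the nearest one. Of those 45, 30 overlapped a long noncoding RNA gene. In all, 372 coding genes had their start in a domain (1.80% of 20661 autosomal coding genes) and 564 overlapped one (2.73%). For 80 of the 372 the strand was unknown, and the end more covered in these libraries served as start. Long noncoding RNA genes overlapped a domain in 231 of 12416 cases (1.86%). There were 26 named coding genes with more than 1 domain, among them Hnf4a, Rxra, Insr, Igf1, Nfia and Nfib with 2 each and Septin9 with 3. Domains with a start, domains over a gene away from its start and domains outside genes had much the same coverage by the other 8 antibodies, with medians of 81.3%, 79.7% and 79.7%. For 197 domains with a single start of known strand, a median of 5.90 kb lay upstream of the start and 15.9 kb downstream, and 147 of them reached further downstream than upstream.

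The shares of genes that started in a domain were highest in the lists of apolipoproteins, plasma proteins and glucose metabolism. Among 8 hepatocyte markers, Alb, Ttr, Apoa1 and Cyp2e1 started in a domain and Hnf4a overlapped one. Markers of Kupffer cells (8), sinusoidal endothelium (6), stellate cells (5), cholangiocytes (5) and lymphocytes (4) had 0 starts and 0 overlaps. Of 18 genes of apolipoproteins and lipid export 9 started in a domain (50%, against 1.80% of all autosomal coding genes), Apoc3, Apoa1, Apoa4, Apoa2, Scarb1, Apoc4, Apoc1, Apoe and Abca1. Of 25 plasma proteins 11 did so (44.0%), with Alb, the thyroxine carrier Ttr, transferrin (Trf) and the vitamin D carrier Gc among them. Glucose metabolism and insulin signalling had 8 of 20 (40.0%), with the glucose transporter Slc2a2, the growth factor Igf1 and the gluconeogenic enzymes G6pc and Pck1. Hepatocyte transcription factors had 7 of 20 (35.0%), which were Cebpa, Foxa2, Onecut2, Cebpb, Prox1, Foxa3 and Klf15, while Hnf4a and Nr5a2 overlapped a domain without their start. Bile acid synthesis and transport had 5 of 15, with the sterol hydroxylases Cyp8b1 and Cyp27a1 and the transporters Abcc2, Slc10a1 and Slco1b2. Nuclear receptors and metabolic regulators also had 5, of 20, Nr1i3, Rxra, Ppara, Nr1d1 and Nr1i2.

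**Figure D1:**
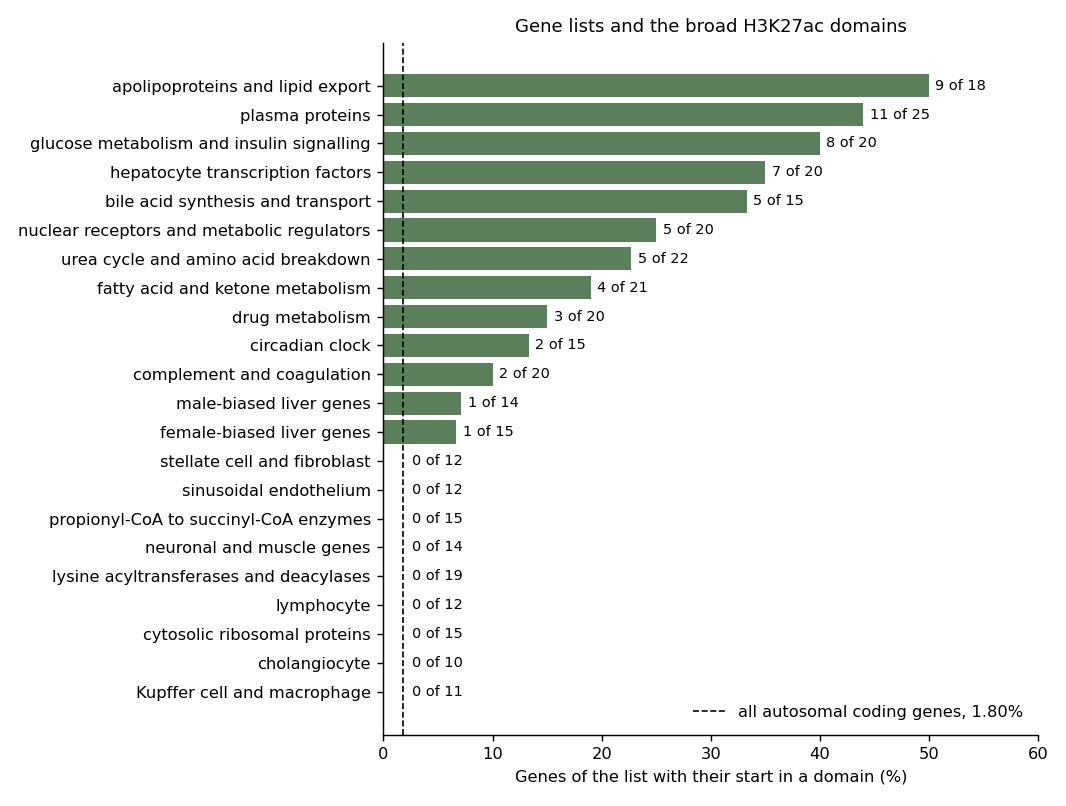
Percentage of the genes of each of 22 lists whose start lay in one of the 498 domains, with the counts beside the bars. The dashed line is the 1.80% of all autosomal coding genes, and the bars run between 50% for apolipoproteins and lipid export and 0 for 9 lists.

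Lower shares were found for urea cycle and amino acid breakdown (5 of 22: Asl, Tat, Ass1, Got1 and Gls2), fatty acid and ketone metabolism (4 of 21, with Dgat2 and Fasn among them) and drug metabolism (3 of 20: Gsta3, Cyp2e1 and Cyp2f2). The circadian clock had 2 of 15 (Tef and Cry2), complement and coagulation 2 of 20 (Fga and F5), male-biased genes 1 of 14 (Bcl6) and female-biased genes 1 of 15 (Cyp17a1). None of 15 enzymes between propionyl-CoA and succinyl-CoA, the pathway whose first step is impaired in PA mice, started in or overlapped a domain. Cytosolic ribosomal proteins (15), neuronal and muscle genes (14) and the lists of 5 other liver cell types also had none. Of all autosomal coding genes 1.80% started in a domain and 2.73% overlapped one, so none in lists this short is near those shares. None of 19 lysine acyltransferases and deacylases started in a domain, and Kat2b, an acetyltransferase of H3K9, overlapped one. Liver was the labelled tissue, and no test was made of these shares.

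Small RNA genes were few. Of 1136 autosomal miRNA genes in the reference table, 14 lay in a domain (1.23%). The let-7 pair of chromosome 13, Mirlet7a-1 and Mirlet7f-1, shared 1 domain (chr13:48537189-48556966, 19.8 kb), and Mir193a and Mir365-2 shared another. Their main mature strands are shown because the first pair carries the same seed, bases 2 to 8, in capitals.
mmu-let-7a-5p: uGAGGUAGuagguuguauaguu
mmu-let-7f-5p: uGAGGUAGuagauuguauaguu
mmu-miR-193a-3p: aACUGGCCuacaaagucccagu
mmu-miR-365-3p: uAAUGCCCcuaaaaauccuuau
The miR-193a and miR-365 seeds differ from it and from each other. The let-7 domain had coverage by the other 8 antibodies of 71.3% ± 4.29 in PA and 60.1% ± 5.51 in WT (SD over 4 preparations), a difference that did not pass the test described below (limma adjusted p = 0.201).

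The other 8 antibodies also covered most of the domain bases, except in WT replicate 2 of H4K16ac. H3K27ac itself covered 94.5% and 94.9% in PA and 95.4% and 97.6% in WT. H3K9ac, a mark of active promoters, covered 81.7% and 81.8% in PA and 84.0% and 83.1% in WT. Among the marks of preparation B, H4K5ac covered 87.1% and 82.6% in PA and 82.6% and 83.4% in WT, H4K12ac 84.9% and 77.7% in PA and 80.7% and 82.1% in WT, and H4K12pr 88.3% and 82.3% in PA and 81.0% and 86.0% in WT. For these 3 the genotypes overlapped. H4K5pr covered 85.0% and 83.7% in PA and 78.3% and 80.3% in WT, so that both PA libraries lay above both WT libraries. H4K16pr (Thermo) covered 84.1% and 78.6% in PA and 70.3% and 82.2% in WT, and H4K16bu 76.8% and 87.3% in PA and 84.7% and 82.8% in WT. H4K16ac stood apart, with 74.5% and 74.2% in PA and 62.7% and 44.7% in WT. The WT lists of H4K16ac were also the shorter ones, with 60491 and 52093 peaks in PA and 46402 and 32358 in WT. With only the widest 32358 peaks kept from every library the difference was 19.6 points, against 20.6 points with all peaks. This setting drops narrow peaks only, so it cannot show what the length of the lists contributes, which was not tested. The in-house H4K16pr antibody covered 45.3% and 17.5% in its 2 WT libraries, from lists of 36465 and 16368 peaks. Values of the other WT H3K27ac regions of 5 kb or wider, 7682 in number, were lower for every antibody, between 65.0% and 86.6% in PA and between 41.3% and 89.0% in WT (means of 2 libraries). Their width is lower by the rule that chose the domains, so this difference was not tested.

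**Figure D2:**
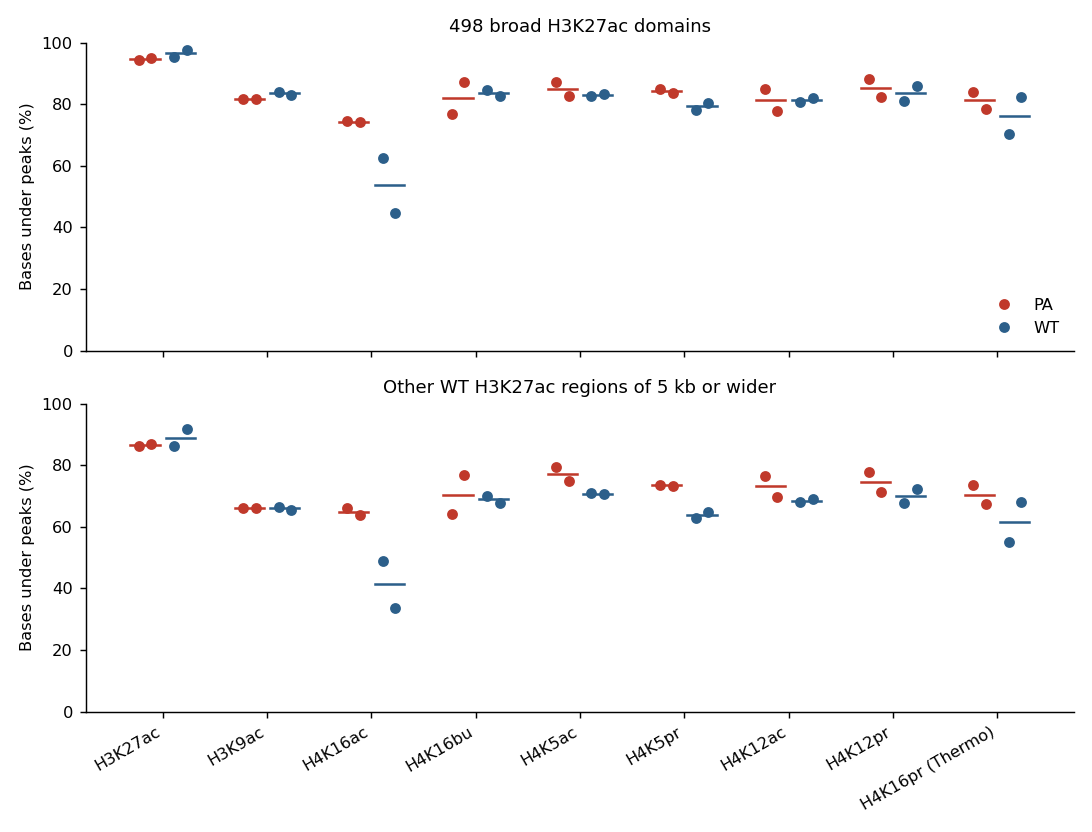
Percentage of bases under peaks in each library (points) with the mean of 2 libraries (lines), PA left of WT for each antibody, in the 498 domains (upper panel) and in the other WT H3K27ac regions of 5 kb or wider (lower panel). H4K16ac covers 74.5% and 74.2% of the domains in PA and 62.7% and 44.7% in WT, and the other antibodies lie closer together.

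Part of the domain bases was shared by all marks. All 36 libraries had a peak over 33.4% of the domain bases, and 0.212% lay under no peak of the 32 libraries other than H3K27ac. The share under all 36 is capped by the 44.7% that WT replicate 2 of H4K16ac covered. Per domain the share under all 32 had a median of 31.9% and ran between 0% and 77.2%. Mean coverage over the 32 libraries ranged from 50.6% to 95.9% with a median of 80.8%, 42 domains stood at 90% or more and 8 under 60%. The lowest were inside Cyth1 (50.6%) and at Mug1 (52.7%) and Fads2 (54.3%), a desaturase of polyunsaturated fatty acids. Cyth1 (chr11:118192955-118221829) had 53.3% ± 10.4 in PA and 48.8% ± 9.33 in WT, Mug1 (chr6:121823906-121843143) 57.6% ± 4.74 in PA and 45.6% ± 6.96 in WT, and Fads2 (chr19:10092391-10117453) 56.0% ± 8.42 in PA and 50.9% ± 6.0 in WT (SD, n = 4 each), and none of them passed limma (adjusted p = 0.751, 0.269 and 0.662). H4K16ac covered least of the 8 antibodies in 422 domains, H3K9ac in 58. H3K9ac covered most in 159, H4K5ac in 154 and H4K12pr in 110. Coverage did not follow width within the domains: Spearman's rho across the 498 domains lay between -0.0468 (H4K12ac) and 0.0470 (H3K9ac), as a description over regions that share their libraries. Peaks of H3K9ac spared 19384 bases (0.147%) that at least 30 of the other 32 libraries covered, and H4K16ac 68467 bases (0.520%). Of those H3K9ac gaps 0 bases lay within 1 kb of a coding start.

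The marks differed in how far a single peak reached. A single H3K27ac peak spanned over 80% of the domain in 346 and 339 domains in PA and in 378 and 434 in WT. For H4K16ac this held in 62 and 60 domains in PA and in 11 and 1 in WT, and a domain held on average 3.74 and 3.66 peaks in PA and 4.58 and 4.75 in WT. For H4K5ac it held in 186 and 121 domains in PA and in 97 and 114 in WT. Peaks of 15 kb or wider were present for H3K9ac in 241 and 238 domains in PA and in 280 and 253 in WT, and for H4K16ac in 142 and 151 in PA and in 46 and 7 in WT. Applied to the PA libraries of H3K27ac, the same rule gave 645 domains of 17.4 Mb. Of these 60.5% overlapped a WT domain, and 79.3% of the WT domains overlapped one of PA. The median width was 23.4 kb in PA and 23.5 kb in WT.

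Coverage was lower at the ends of a domain than in its middle. In the outer 10% of the width on each side H3K9ac covered 63.2% in PA and 65.1% in WT, and in the central bins (40 to 50% of the width from either end) 87.5% in PA and 89.3% in WT. H4K16pr (Thermo) covered 58.5% of the ends in PA and 50.8% in WT, and 89.1% of the centre in PA and 85.1% in WT. H4K5pr covered 64.9% of the ends in PA and 56.0% in WT, a difference of 8.89 points, and 90.7% of the centre in PA and 87.1% in WT, a difference of 3.57 points. H4K5ac had differences of 5.17 points at the ends and 0.820 at the centre. For H4K16ac the difference was alike along the width, 21.5 points at the ends and 21.3 at the centre. The ends were set by the WT H3K27ac peaks, and H3K27ac itself covered 84.2% of them in PA and 88.4% in WT.

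Around gene starts the marks differed in shape. In the first 1 kb downstream of 292 starts of known strand in domains, H3K9ac covered 97.3% in PA and 97.6% in WT, H4K16bu 97.7% in PA and 97.4% in WT, and H4K5ac 90.8% in PA and 92.1% in WT. H4K5ac was the lowest of the marks there in PA, and H4K16ac in WT (87.2%). Between 3 and 4 kb downstream H3K9ac still covered 89.4% in PA and 89.2% in WT, H4K12pr 85.3% in PA and 85.9% in WT, and H4K16ac 69.8% in PA and 49.3% in WT. At 20 to 21 kb downstream H3K27ac covered 54.7% in PA and 51.1% in WT, and H4K16ac 33.7% in PA and 18.6% in WT. Starts in the other regions of 5 kb or wider (2648) had like values in the first 1 kb, 95.3% in PA and 95.5% in WT for H3K9ac, and lower ones 3 to 4 kb downstream, 61.3% in PA and 59.5% in WT. The profile around starts shows the same contrast for each antibody. Since domains were chosen for their width, the extent of the flanks is not a result.

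**Figure D3:**
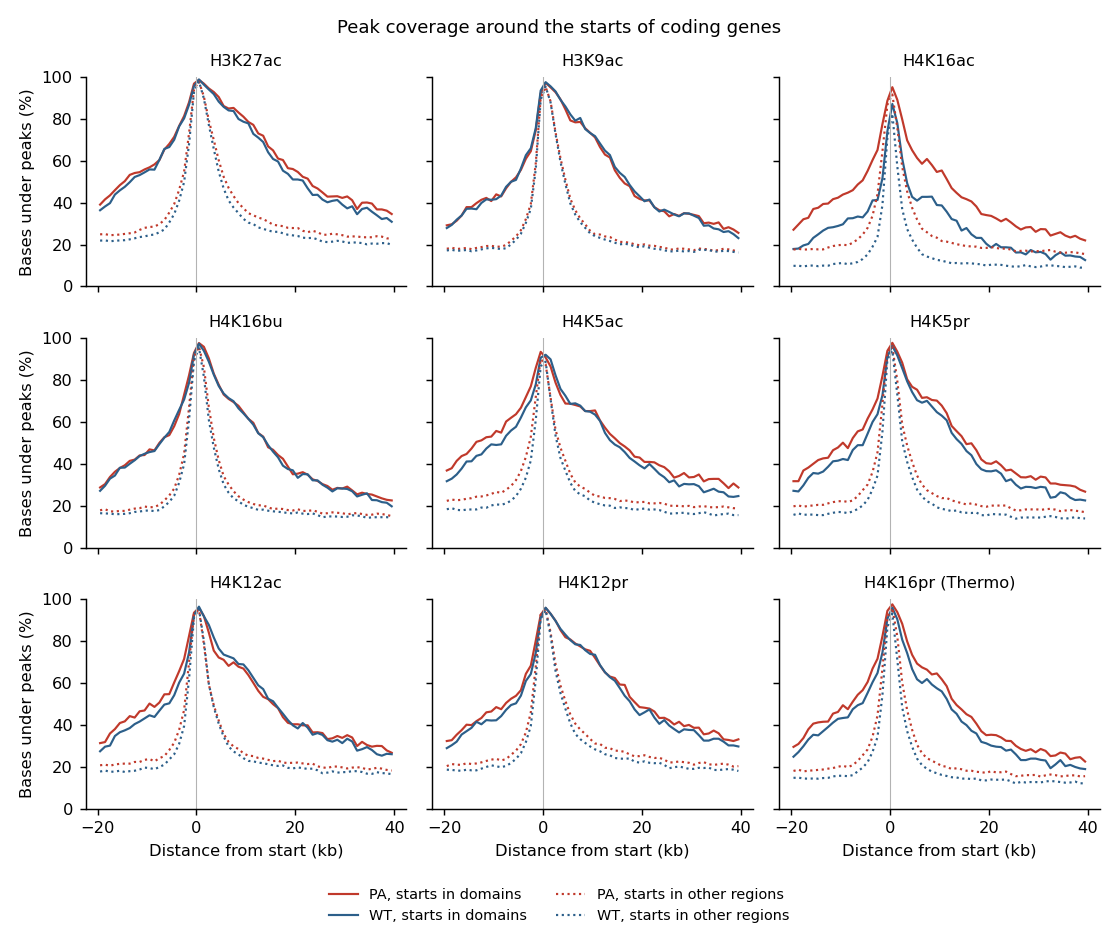
Percentage of bases under peaks in 1 kb bins by distance from the start of a coding gene, in the direction of the gene, for PA (red) and WT (blue), means of 2 libraries, with 292 starts in domains (solid) and 2648 in other regions of 5 kb or wider (dotted). The lines meet near the start and part along the flanks, and H4K16ac is the mark with the widest gap between PA and WT.

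Whether the domains as a whole differed between PA and WT livers was tested over preparations, taking the mean of the antibodies other than H3K27ac. Preparations PA 1A, 2A, 1B and 2B had 77.6%, 81.1%, 85.9% and 81.0%, and WT 1A, 2A, 1B and 2B had 77.1%, 70.2%, 78.6% and 82.8%. The genotypes overlapped. Means were 81.4% ± 3.39 in PA and 77.2% ± 5.25 in WT (SD, n = 4 each), a difference of 4.22 points that did not pass an exact two-sided permutation test within preparation letters (p = 0.167, the smallest possible being 0.0556). It was 2.48 points without WT 2A and 3.0 to 5.95 with any other preparation left out. The difference was 5.70 points for the antibodies of preparation A and 2.73 for those of B, and without H4K16ac it was 0.480 (p = 0.889, same exact test). No antibody could pass alone, since an exact test of 2 against 2 libraries gives at least p = 0.333. An SD over the 4 preparations of a genotype, here and elsewhere, also takes in the difference between the antibodies of letters A and B.

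Counts over single domains are given as a description, since all domains share the same 2 libraries per genotype and are not replicates. Of the 38292 regions set beside them, 30112 were under 5 kb, so the shares compare unlike widths. Both PA libraries of H4K16ac lay above both WT libraries in 371 of the 498 domains (74.5%, against 44.1% of all 38292 regions) and below in 1 (0.201%, against 1.34%). The median difference in H4K16ac was 20.2 points among the domains and 24.1 among all regions tested. Without WT replicate 2, the least covered library, the H4K16ac difference over all domain bases was 11.6 points, without WT replicate 1 it was 29.6, and with all 4 libraries it was 20.6, beside 23.7 in the other regions of 5 kb or wider. For H4K5pr, 232 domains lay above (46.6%, against 39.9% of all regions) and 31 below (6.22%, against 5.17%), and the median difference was 4.76 points among the domains and 10.3 among all regions tested. Over all bases H4K5pr differed by 5.06 points in the domains and 9.56 in the other regions of 5 kb or wider. H4K16pr (Thermo) had 134 above (26.9%, against 32.8%) and 19 below (3.82%, against 4.24%). H4K5ac had 140 above (28.1%, against 31.0%) and 61 below (12.2%, against 7.01%). H4K12pr had 107 above (21.5%, against 25.3%) and 56 below (11.2%, against 8.95%), and H4K12ac 109 above (21.9%, against 28.3%) and 96 below (19.3%, against 8.66%). H4K16bu had 54 above (10.8%, against 23.2%) and 79 below (15.9%, against 10.2%). For H3K9ac more domains lay below, 135 (27.1%, against 14.4% of all regions), than above, 72 (14.5%, against 18.9%), with means of 81.7% in PA and 83.5% in WT over all domain bases. H3K27ac, which chose the domains in WT, had 31 above (6.22%, against 10%) and 108 below (21.7%, against 21.7%).

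The PA minus WT difference was next set against that of the other H3K27ac regions of 5 kb or wider. Coverage of the domains exceeded that of the other regions by 12.2, 12.2, 9.68 and 9.66 points in preparations PA 1A, 2A, 1B and 2B, and by 15.3, 14.6, 13.6 and 13.8 points in WT 1A, 2A, 1B and 2B. Every PA value lay below every WT value. The domains were chosen by peak width in WT 1A and 2A, which also enter the WT side here. Whether this choice raises the excess in WT was not tested. The means were 10.9 ± 1.45 in PA and 14.3 ± 0.769 in WT (SD, n = 4 each), a difference of -3.40 points (exact two-sided permutation within preparation letters, p = 0.0556, the smallest this design can give, which does not reach 0.05). Between PA and WT the median region differed by 4.20 points among the domains, 6.67 among 2120 other regions of 10 kb or wider, 8.16 among 5562 regions of 5 to 10 kb and 8.93 among those under 5 kb. The domains were also the most covered class in WT (77.2%, against 65.8%, 60.5% and 50% in the others). A comparison added after seeing the data kept 248 domains and 1601 other regions with WT coverage of 71.7% to 83.1%. The difference between the classes was then -0.449 points (exact permutation p = 0.278). The median change was 4.29 points in these domains and 5.77 in these other regions. WT coverage chose the regions and is also part of the difference, so the comparison cannot separate coverage from class.

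Domain by domain, 15 of the 498 were higher in PA and 1 was lower (limma on the mean over 8 antibodies, with genotype and preparation letter in the model, Benjamini-Hochberg adjusted p under 0.05 over all 37887 regions tested). These shares, 3.01% and 0.201%, lay below the 9.50% higher and 0.779% lower of all regions tested. The domains all passed the filter on low values. At an unadjusted p under 0.05, 73 domains were higher and 3 lower (14.7% and 0.602%, against 27.3% and 2.55% of all regions tested). In 110 domains (22.1%, against 23.3% of all regions) both PA preparations lay above both WT preparations in each letter, and in 4 (0.803%, against 2.30%) below. The median domain was 4.20 points higher in PA and the median of all regions 8.47 points higher. After quantile normalization between preparations these medians were -6.61 and -1.24 points, and 0 domains were higher and 16 lower (3.21%), against 1.81% higher and 1.35% lower of all regions. Without H4K16ac 0 domains were higher and 1 lower, against 2.41% and 0.478% of all regions, with 35 domains (7.03%, against 21% of all regions) past an unadjusted p of 0.05 in either direction. With the A and B preparations of a number averaged, 2 against 2, limma again gave 0 and 1, against 2.48% and 0.132% of all regions, and 54 domains unadjusted (10.8%, against 27%). Leaving out 1 preparation gave 0 higher (PA 1A or PA 1B), 1 (PA 2A), 2 (WT 2A), 4 (WT 1B), 7 (PA 2B or WT 1A) or 13 (WT 2B), and 1 lower each time, while between 542 and 2990 of all regions were higher and between 65 and 198 lower.

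**Figure D4:**
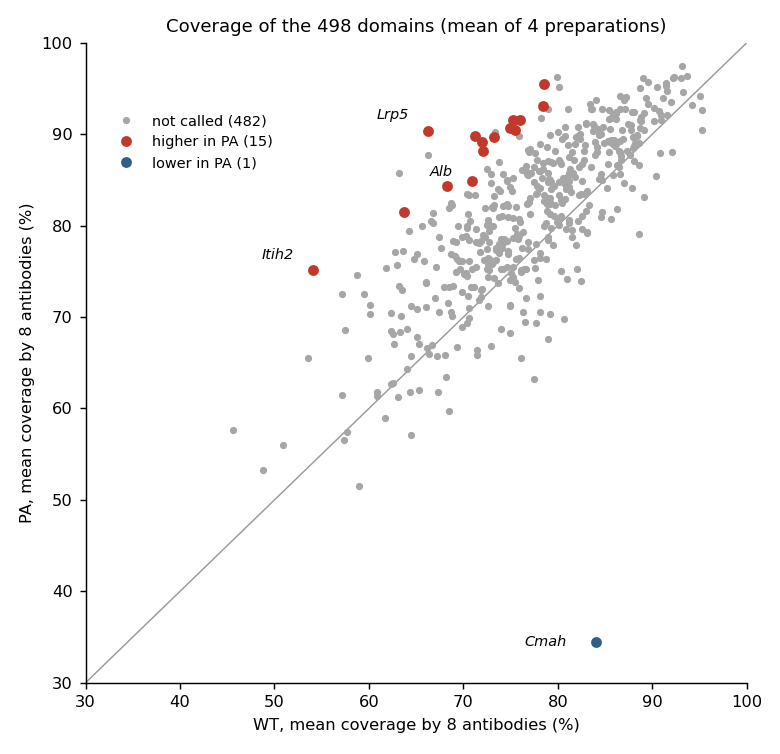
Mean coverage of each of the 498 domains by the 8 antibodies other than H3K27ac, PA on the vertical and WT on the horizontal axis (mean of 4 preparations each), with the line of equality. The 15 domains called higher lie above the line, and Cmah, at 34.5% in PA and 84.0% in WT, lies furthest below it.

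The domain that fell lay in Cmah (chr13:24349841-24367775, 17.9 kb), between 22.4 and 40.4 kb downstream of the gene's start. Cmah encodes the hydroxylase that makes N-glycolylneuraminic acid. Its coverage was 26.6%, 28.7%, 39.3% and 43.5% in preparations PA 1A, 2A, 1B and 2B and 74.2%, 81.5%, 82.4% and 98.1% in WT 1A, 2A, 1B and 2B. The groups were far apart, with means of 34.5% ± 8.14 in PA and 84.0% ± 10.1 in WT and a difference of -49.5 points (limma adjusted p = 0.00512, lower in 4 of 4 PA preparations). H3K9ac covered 11.1% and 25% in PA and 62.4% and 71.1% in WT, and H4K16pr (Thermo) 30.1% and 34.3% in PA and 75.2% and 100% in WT. H4K16ac, higher in PA over the domains as a whole, covered 45.8% and 23.3% of it in PA and 71.7% and 80.6% in WT. H3K27ac covered 27.5% and 60.5% in PA and 96.7% and 95.1% in WT. The region is a member through its wide WT peaks, and no PA peak of H3K27ac there reached 15 kb. A region wide in PA only could not enter by the rule, so the domains cannot show the reverse case. Both PA libraries lay below both WT libraries for each of the 8 antibodies other than H3K27ac. The call was kept in 17 of 19 alternative fits without H3K27ac, all but those on the antibodies of 1 preparation letter (adjusted p of 0.00562 to 0.178 over the 19). Those fits on 1 letter called no region at all.

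**Figure D5:**
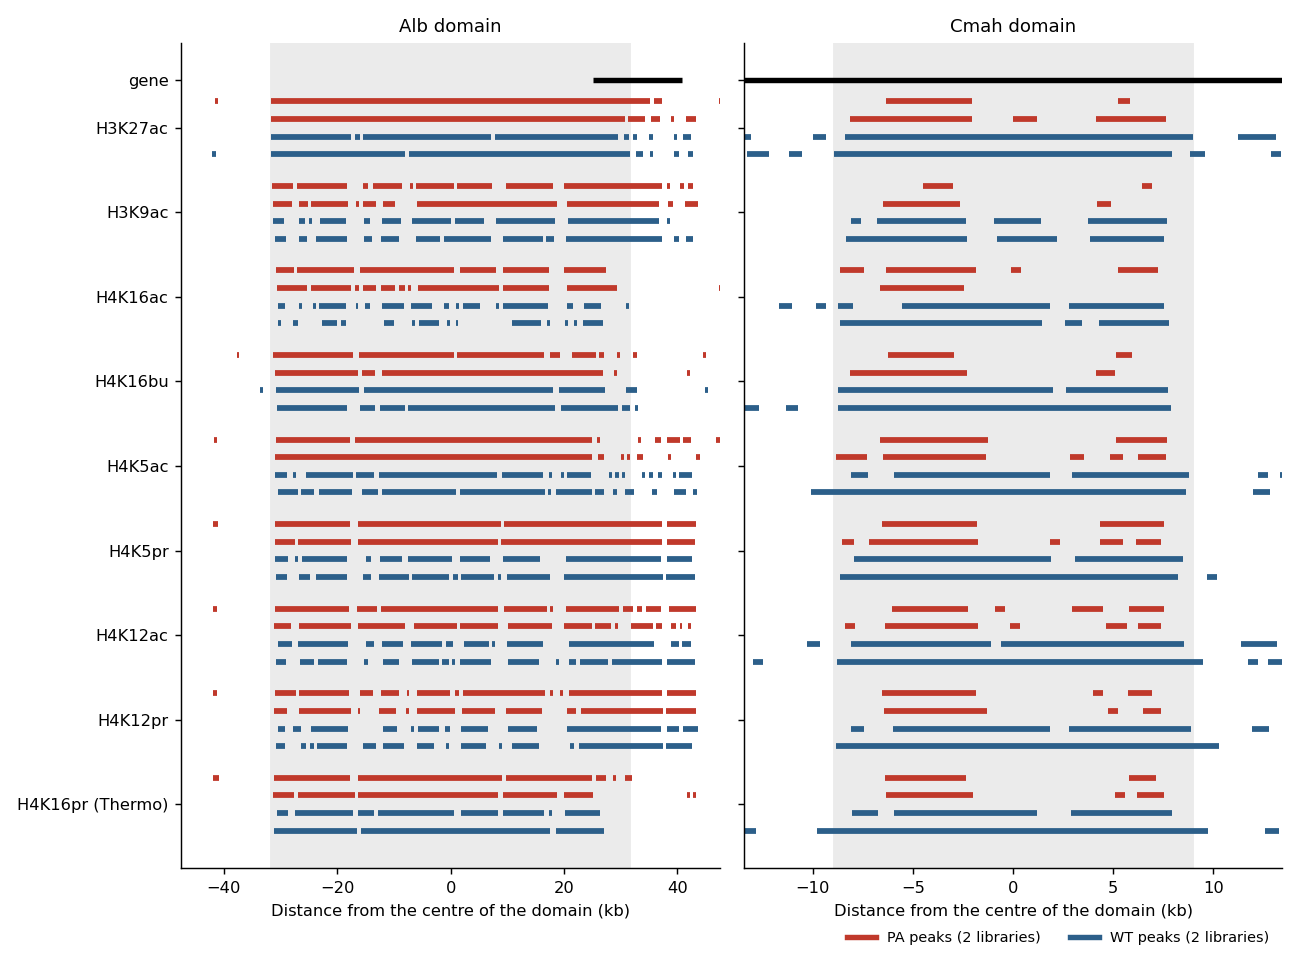
Peaks in the Alb domain (left) and the Cmah domain (right), by distance from the centre of the domain in kb, with 2 PA libraries (red) above 2 WT libraries (blue) for each of 9 antibodies, the domain shaded and the gene as a black bar. In Cmah the PA peaks cover 34.5% of the domain and the WT peaks 84.0% on average over 8 antibodies, and in Alb 84.9% in PA and 70.9% in WT.

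The largest increase was that of the domain at the start of Lrp5, a Wnt co-receptor (chr19:3664352-3688739). Coverage was 88.1%, 84.8%, 95.7% and 92.8% in PA and 70.6%, 67.0%, 55% and 72.8% in WT, in the order 1A, 2A, 1B, 2B. The difference was 24.0 points (limma adjusted p = 0.0217), with H4K5pr at 88.9% and 91.2% in PA and 40.0% and 65.3% in WT. The Itih2 domain (chr2:10122616-10144299), at a gene of the inter-alpha-trypsin inhibitor of plasma, had 65.7%, 70.2%, 87.4% and 77.1% in PA and 47.8%, 48.6%, 63.8% and 56.3% in WT, a difference of 21 points (limma adjusted p = 0.0398). The third was 1 of the 2 domains inside Nfia, a nuclear factor I gene (chr4:97802004-97827361), with 88.5%, 92.7%, 92.1% and 85.8% in PA and 72.0%, 61.5%, 77.5% and 73.6% in WT (18.6 points, limma adjusted p = 0.0296). The other Nfia domain (chr4:97763237-97788838) differed by -1.25 points (limma adjusted p = 0.868). In all 3 called domains PA stood above WT in every preparation of the same letter. Over 19 alternative fits without H3K27ac the limma adjusted p ran between 0.0223 and 0.208 for Lrp5, 0.0369 and 0.358 for Itih2 and 0.0356 and 0.324 for Nfia. The call was kept in 11 of these fits for Lrp5, 3 for Itih2 and 7 for Nfia.

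The other 12 domains called higher differed by 14.0 to 17.8 points. They lay at Alb, Ass1 (argininosuccinate synthase of the urea cycle), Scarb1 (the HDL receptor), Rara (a retinoic acid receptor), Tbxas1 (thromboxane synthase), Pim3 (a kinase), Paqr7 (a progestin receptor of the membrane), Vps13d (a lipid transfer protein), Tns1 (tensin), Rmdn2, Nedd4l (a ubiquitin ligase) and near Chd2. The domain named after Tbxas1 also held the start of Hipk2, on the other strand, and 30.9 kb of it lay downstream of that start. The Alb domain had 84.9% ± 2.60 in PA and 70.9% ± 3.94 in WT (SD, n = 4 each; 14.0 points, limma adjusted p = 0.0481). There H4K5pr covered 95.9% and 95.3% in PA and 73.9% and 77.9% in WT, H4K16ac 81.5% and 80.1% in PA and 52.9% and 34.3% in WT, and H4K16bu 84.4% and 89.1% in PA and 90% and 89.6% in WT. Among the 10 widest domains, Alb was the only one called. Mtss1, the widest, had 95.3% ± 1.72 in PA and 91.4% ± 5.35 in WT (limma adjusted p = 0.444), and the Apoa1 domain 83.8% in PA and 73.9% in WT (limma adjusted p = 0.135). Atxn2, with 68.9% in PA and 69.9% in WT, was the only one of the 10 with a lower mean in PA. The Cebpa domain of 49.0 kb had 78.5% ± 1.98 in PA and 75.8% ± 5.37 in WT (limma adjusted p = 0.672).

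The starts of the 372 domain genes were compared in windows of 5000 bp. Coverage of a window averaged over antibodies had a median of 4703 bp in PA and 4446 bp in WT, and 171 genes stood above 4500 bp in WT. Of the 372 genes 17 were higher in PA (4.57%, against 3.98% of 14529 genes tested) and 0 lower (against 0.262%), by limma with Benjamini-Hochberg adjustment over all genes. The median change was 160 bp for domain genes and 261 bp for all. After quantile normalization the medians were -30.0 bp and -15.6 bp, with 2 domain genes higher (0.538%) and 0 lower, against 0.778% and 0.420% of all genes. Among the called genes other than predicted ones the largest changes were at Fdft1, squalene synthase (4372 ± 397 bp in PA and 3039 ± 442 bp in WT, SD, n = 4 each, limma adjusted p = 0.0401), Amotl2 (4579 ± 401 bp in PA and 3357 ± 299 bp in WT, limma adjusted p = 0.0312) and Tbxas1 (4168 ± 424 bp in PA and 3002 ± 370 bp in WT, limma adjusted p = 0.0433). Scarb1 (3860 ± 304 bp in PA and 2792 ± 433 bp in WT) and Arap1 (4502 ± 244 bp in PA and 3495 ± 372 bp in WT) followed. For Fdft1 and Scarb1 the strand was unknown and the more covered end of the gene was used. Of 19 alternative fits without H3K27ac, 5 kept the call of Fdft1, 5 Amotl2, 3 Tbxas1, 1 Scarb1 and 4 Arap1. The highest limma adjusted p over these fits lay between 0.317 (Amotl2) and 0.433 (Fdft1). The others were Gsta3, Pigr, Ephx1, Slc17a8, Sec14l2, Nfkbia, Pim3, Ahcy, Tsku, Bnip3 and 2 predicted genes. None of the plasma protein genes was called, and the window of Alb had 4448 ± 357 bp in PA and 4367 ± 197 bp in WT (limma adjusted p = 0.767), while the domain that precedes it was higher. Without H4K16ac 1 domain gene was higher (0.269%, against 0.489% of all genes). With the A and B preparations of a number averaged, 2 against 2, limma called 0 (85 at an unadjusted p under 0.05, or 22.8%, against 27.1% of all genes). Leaving out 1 preparation gave 11 (PA 2B, against 4.33% of all genes), 10 (WT 2B, 3.19%) or between 3 and 6 genes (each of the other 6, 0.592% to 1.27%).

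Acyl and acetyl marks of the same lysine were compared within preparations. At H4K5 the propionyl mark covered less than the acetyl mark in 3 of 4 preparations, with differences of -2.01 and 1.11 points in PA and -4.30 and -3.11 in WT (mean -2.08 ± 2.32, exact sign-flip p = 0.25). At H4K12 it covered more in 4 of 4, by 3.33 and 4.66 points in PA and 0.325 and 3.92 in WT (mean 3.06 ± 1.90, exact p = 0.125). At H4K16 the butyryl mark covered more than the acetyl mark in 4 of 4, by 2.33 and 13.0 points in PA and 22.0 and 38.1 in WT (mean 18.8 ± 15.1, exact p = 0.125). With 4 preparations p cannot fall below 0.125. The mean at H4K16 was 12.4 points without WT replicate 2 of H4K16ac and H4K16bu and 17.8 to 24.4 without any other preparation. At H4K5 it was -1.34 points without WT replicate 1 and -3.14 without PA replicate 2, and at H4K12 it ran from 2.52 to 3.97 with 1 preparation left out. Over the other regions of 5 kb or wider the same differences averaged -5.32, 1.54 and 16.6 points. The acyl minus acetyl difference itself was higher in PA by 3.25 points at H4K5 (exact p = 0.333) and by 1.87 at H4K12 (exact p = 0.667), and differed by -22.4 at H4K16 (exact p = 0.333), the smallest p being 0.333.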

How the data were processed

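Peak lists of 38 native ChIP-seq libraries were used, and 8 inputs of the 46 samples were not. The deposited values are start and end positions in base pairs, 1 peak a line, on GRCm38, with no count, score or p-value and no peak under 500 bp. HOMER 4.10, Bowtie2 2.5.1, bedtools 2.31.0, cutadapt 3.5, R 4.1.2 and SAMtools 1.17 are named, per the submitters' processing notes. Roles, peak-calling settings and any use of inputs are not stated, and differing depth would change the bases listed.

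Coverage was computed in Python 3.11.15 (numpy 2.4.6, pandas 2.3.3, matplotlib 3.10.9) as the percentage of bases under peaks, averaged over the antibodies of a preparation. Genes and promoters came from RefSeq (GRCm38.p6). The gene table gives no strand: it was taken from the promoter table for 17273 of 21627 coding genes, and for 4354 the end with the higher mean coverage served as start. Regions and 5000 bp gene windows entered linear models with terms for genotype and preparation letter and a variance trend (limma 3.58.1, R 4.3.3) where at least 2 libraries held a covered base, and adjusted by Benjamini-Hochberg at 0.05. Single values were compared by exact two-sided permutation within preparation letters, with 36 arrangements. The fits were tested on simulated data.

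Members and gene lists were chosen with earlier results of these data known. The 10 widest domains, the 3 largest changes in each direction past the threshold, the 3 least covered domains, the 3 on either side of the width limit and the 5 largest gene changes are named; other called domains and genes and a few known genes were added after their values were seen. Alternatives were other widths, filters, scalings, antibodies and models, and leaving out each preparation; a fit that also took in H3K27ac was run but is not used in the text.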

Additional observations from a re-analysis of the deposited data

Results flagged for a closer look

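For 3 of the 8 antibodies other than H3K27ac both PA libraries lay on the same side of both WT libraries over the domain bases. The side was not the same for all 3. H4K16ac was higher in PA by 20.6 points (11.6 without WT replicate 2 and 29.6 without WT replicate 1) and H4K5pr by 5.06 points, whereas H3K9ac differed by -1.83 points, each with PA minus WT taken from 2 libraries per genotype. The difference between these antibodies was not tested. Within each antibody the exact permutation p was 0.333, the smallest possible.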

How the results depend on the processing

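The count of domains called higher, 15, was 3 without the trend in limma, 2 without the preparation letter, 0 after quantile normalization, 0 without H4K16ac, 0 with letter A or letter B antibodies alone and 0 with A and B averaged. With peaks of 10 kb or wider there were 1307 domains, 44 higher (3.37%) and 4 lower (0.306%). With 20 kb or wider there were 207 domains, 5 higher (2.42%) and 0 lower. At 15 kb the shares of all regions were 9.50% higher and 0.779% lower, and at the other widths they are not given. The 1 lower call became 16 after quantile normalization (3.21%, against 1.35% of all regions) and 0 with either letter alone, as over all regions. Leaving out 1 preparation gave 0 to 13 higher and 1 lower, against 1.43% to 7.89% and 0.172% to 0.523% of all regions. The count of domain genes called higher, 17, was 4 with no filter (0.758% of all genes) and 5 without the preparation letter (1.13%). It was 2 after quantile normalization (0.778%), 10 with equal numbers of peaks, the widest kept (2.17%), and 1 without H4K16ac (0.489%). With either letter alone and with A and B averaged it was 0, as over all genes. With 1 preparation left out it was 3 to 11 (0.592% to 4.33%). Among the 564 coding genes whose body overlaps a domain 1 was lower, against 0.262% of all genes tested. The causes were not tested.

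Same-numbered PA and WT preparations did not deviate together (r = -0.00493 in A and 0.00277 in B, across regions), nor did A and B of a number in PA (0.0493), while those in WT had r = 0.223. With a replicate block 2 domains were higher and 1 lower, against 5.37% and 0.449% of all regions. Genes had 0 calls in either direction, in the domains and over all genes. With this block the coverage difference of 4.22 points had an exact p of 0.375. The difference between the classes, -3.40 points, had an exact p of 0.125.

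Without 1 library at a time, the H4K16ac difference ran from 11.6 points (without WT replicate 2) to 29.6 (without WT replicate 1), the H4K16bu difference ran from -6.95 to 3.52 points (positive without PA replicate 1), H4K5ac from -0.404 to 4.03 (negative without PA replicate 1) and H4K12ac from -3.69 to 3.56 (positive without PA replicate 2 and, at 0.667, without WT replicate 2), and H4K12ac was 0.862 with 10 kb domains. H4K12pr ran from -1.16 to 4.76 (negative without PA replicate 1 and, at -0.730, without WT replicate 1) and H4K16pr (Thermo) from -0.868 (without WT replicate 1) to 11.0. Coverage of the domains ran from 2.48 to 5.95 points and the difference between the classes from -3.58 to -3.23. Unknown depth limits every value, since peak lists hold no counts.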
